A study of Mus musculus with 12 samples.

Results

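The Hox genes were followed across adrenal glands of male C57Bl/6J mice that were 21 weeks old, in 4 groups given aspartame, the NMDA receptor antagonist CGP 39551, both or neither. Members were all genes whose single symbol in the array's probe table begins with Hox, a cluster letter from a to d and a paralogue number, each read at its brightest probe set, by the mean of all 12 arrays. This gave 35 genes of 16244, of which 34 have the symbol of a protein-coding Hox gene and 1, Hoxd3os1, is an antisense transcript of the Hoxd3 locus. CON mice received neither agent. CGP mice received CGP 39551, a competitive antagonist at the glutamate site of the receptor, through their dam at 5 mg/kg in drinking water from embryonic day 0 to postnatal day 28. ASP mice received aspartame at 46 mg/kg in drinking water from life in utero to the end of the study, and ASP+CGP mice received both agents on these schedules. For each group, equal amounts of RNA from its mice were combined into 1 pool, and 3 arrays were hybridised from that pool. The spread between arrays and every p-value below therefore describe the arrays of a pool and not the difference between mice.

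Hox genes encode homeodomain transcription factors that record position along the body axis. They lie in 4 clusters, and their order along the chromosome matches both the order in which they switch on and how far towards the head each is expressed, so that low paralogue numbers act in the hindbrain and neck and high numbers in the lumbar, tail, limb and genital regions. Genes with the same number in different clusters are paralogues that share much of their function. Adult organs keep part of the Hox code of the level at which they formed. The adrenal primordium arises in trunk mesoderm, and the forebrain of the early embryo expresses no Hox genes.

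The members comprised 9 genes of the Hoxa cluster, 9 of Hoxb, 7 of Hoxc and 10 of Hoxd. By number, 8 were anterior (paralogues 1 to 3), 14 central (4 to 8) and 13 posterior (9 to 13). Hoxb8 shared its probe set with Hoxb7 and was therefore no member. Each group mean below is a log2 signal (RMA, robust multi-array average). A gene was tested when it reached 6 on this scale in the mean of at least 1 group, and all 35 members were among the 15900 genes tested. Hoxd1, Hoxc10 and Hoxd10 reached 6 in ASP+CGP only, so they were tested only through the group where their signal was highest. A gene was called when limma's moderated test gave an adjusted p under 0.05, after Benjamini-Hochberg adjustment over all 15900 genes, and when the groups differed at least 1.4-fold.

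The labelled tissue was borne out by bright adrenal markers in every group, although some markers of the same lists were called lower in ASP, as given below. Star, which moves cholesterol into mitochondria for steroid synthesis, had mean log2 signals of 13.64 in CON, 13.59 in CGP, 13.41 in ASP and 13.53 in ASP+CGP. Th, the rate-limiting enzyme of catecholamine synthesis, had means of 13.39, 13.25, 12.97 and 13.30 in the same order. The pools differed in markers of other cells, among them neurons and, as given below, oligodendrocytes, astrocytes and hepatocytes. Of the neuron markers 9 of 9 were called higher in ASP than in CON, with a summed linear signal of 16191 to 17290 on the ASP arrays, 3757 to 3876 on CON, 3686 to 3819 on CGP and 3361 to 3664 on ASP+CGP. Array profiles of a pool correlated at r of 0.989 to 0.995 over all probe sets. The 3 arrays per pool limit the precision.

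Sequences are shown for 2 microRNAs encoded within the clusters, those with a probe set of their own, and for 4 promoters. The promoters are of 2 genes of paralogue group 4 that were lower in ASP and of 2 posterior genes that were higher in ASP+CGP. RefSeq (GRCm38.p6) gives the mature strands, with the seed, bases 2 to 8, in capitals. They have 22 bases, share the seed and differ at 1 position.
miR-196a-5p: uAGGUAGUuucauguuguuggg
miR-196b-5p: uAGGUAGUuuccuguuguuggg

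The measured gene of the former, Mir196a-1, lies in the Hoxb cluster (chr11:96265187-96265208, plus strand) and that of the latter, Mir196b, in the Hoxa cluster (chr6:52230129-52230150, minus strand). As background, miR-196 is known for directing cleavage of Hoxb8 mRNA. Their probe sets do not separate the mature strand from its precursor, and their values are given with those of the Hox genes below.

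Promoter windows were found for 21 of the 35 members in the same RefSeq table. The windows below are the 250 bases that end just before the annotated start, all on the plus strand: Hoxb4 at chr11:96318017-96318266, Hoxd4 at chr2:74721728-74721977, Hoxd12 at chr2:74674763-74675012 and Hoxd13 at chr2:74667975-74668224. Capitals mark matches, on either strand, to the core of the promoter box TATAAA, to the motif CCAAT bound by the factor NF-Y, to the motif GGGCGG bound by Sp1, or to the nuclear receptor half-site AGGTCA, which retinoic acid receptors also bind.
Hoxb4: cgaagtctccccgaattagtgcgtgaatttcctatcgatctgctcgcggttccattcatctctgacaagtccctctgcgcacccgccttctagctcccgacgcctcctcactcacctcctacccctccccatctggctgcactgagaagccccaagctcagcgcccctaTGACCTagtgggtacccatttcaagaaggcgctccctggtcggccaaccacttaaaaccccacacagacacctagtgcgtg
Hoxd4: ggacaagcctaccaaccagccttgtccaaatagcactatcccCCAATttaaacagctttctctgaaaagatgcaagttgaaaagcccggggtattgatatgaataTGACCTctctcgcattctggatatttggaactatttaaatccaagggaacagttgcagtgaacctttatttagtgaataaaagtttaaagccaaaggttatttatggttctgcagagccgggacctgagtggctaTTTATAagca
Hoxd12: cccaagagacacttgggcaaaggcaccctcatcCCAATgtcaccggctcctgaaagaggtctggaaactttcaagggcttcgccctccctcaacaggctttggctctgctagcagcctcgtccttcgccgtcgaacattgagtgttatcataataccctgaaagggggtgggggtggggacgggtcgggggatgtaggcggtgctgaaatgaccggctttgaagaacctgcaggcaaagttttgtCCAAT
Hoxd13: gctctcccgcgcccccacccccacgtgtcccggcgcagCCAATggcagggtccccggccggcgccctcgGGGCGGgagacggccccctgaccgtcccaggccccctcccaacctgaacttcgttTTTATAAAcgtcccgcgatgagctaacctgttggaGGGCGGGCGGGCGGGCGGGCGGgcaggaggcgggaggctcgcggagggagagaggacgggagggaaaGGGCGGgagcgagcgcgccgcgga

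Among all 32851 promoter windows of this length, 12.4% held TATAAA, 33.8% CCAAT, 32.7% GGGCGG and 14.0% AGGTCA. Among the 23 windows of members the corresponding numbers were 3, 13, 9 and 6. The Hoxb4 and Hoxd4 windows each hold an AGGTCA match, from 81 to 76 and from 145 to 140 bases before the start, and the Hoxd12 and Hoxd13 windows hold none. GC content was 58.0%, 40.4%, 55.6% and 74.4% in the order printed. In Hoxd13 a TATAAA match on each strand overlaps the other, and 5 of its 7 GGGCGG matches overlap one another. A match is a run of letters and was not tested as a binding site. The printed promoters were picked by the direction of their genes' differences. Motifs and differences were not compared over the 21 members with windows.

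Aspartame alone was compared with CON first. Of the 35 Hox genes 11 were downregulated in the ASP pool and 0 were upregulated, while 8.13% of all genes tested were called lower and 9.81% higher. The median log2 difference of the members was -0.27, and that of all genes tested was -0.10. The 11 genes lay between paralogue numbers 2 and 9: Hoxb2, Hoxa3, Hoxb3, Hoxb4, Hoxd4, Hoxb5, Hoxc5, Hoxb6, Hoxc6, Hoxc8 and Hoxb9, with differences of -0.75 to -0.54.

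Hoxb9, a regulator of thoracic segment identity, was read on probe set 10380622. Its log2 signals were 11.90, 11.90 and 11.90 on the CON arrays, 11.86, 11.86 and 11.78 on CGP, 11.11, 11.18 and 11.16 on ASP, and 11.36, 11.41 and 11.42 on ASP+CGP. The ASP arrays were the lowest and overlapped no other group. The ASP signal was 1.68-fold below CON, a log2 difference of -0.75 ± 0.05 (SE, n = 3 arrays per group; limma adjusted p = 1.53e-08).

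Hoxb5, which acts in the neck and upper trunk and in neural crest of the gut, had log2 signals of 9.12, 9.12 and 9.07 in CON, 8.98, 9.07 and 9.01 in CGP, 8.31, 8.46 and 8.41 in ASP, and 8.71, 8.97 and 8.72 in ASP+CGP. It was 1.64-fold lower in ASP than in CON (log2 difference -0.71 ± 0.07, SE; limma adjusted p = 9.58e-07), and its 4 groups followed the same order as those of Hoxb9. Hoxb3, which acts in the hindbrain and pharyngeal organs, had signals of 9.82, 9.86 and 9.80 in CON, 9.64, 9.62 and 9.66 in CGP, 9.05, 9.20 and 9.19 in ASP, and 9.71, 9.75 and 9.56 in ASP+CGP. Its ASP arrays were again below all others, 1.60-fold below CON (-0.68 ± 0.06, SE; limma adjusted p = 4.54e-07), while its CGP and ASP+CGP arrays overlapped.

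Hoxd4, one of the paralogues that pattern the posterior hindbrain and neck vertebrae, had signals of 7.94, 7.90 and 7.96 in CON, 7.80, 7.92 and 7.78 in CGP, 7.28, 7.23 and 7.29 in ASP, and 7.72, 7.73 and 7.60 in ASP+CGP. It was 1.59-fold lower in ASP (-0.67 ± 0.06, SE; limma adjusted p = 2.44e-07). Hoxc8, which specifies limb-level and thoracic motor neurons, had signals of 10.59, 10.53 and 10.61 in CON, 10.43, 10.61 and 10.58 in CGP, 9.82, 9.93 and 9.98 in ASP, and 10.18, 10.47 and 10.20 in ASP+CGP. Both genes were lowest in ASP, with no ASP array reaching any array of the other groups.

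The remaining called genes differed from CON by -0.69 (Hoxc5), -0.62 (Hoxb4), -0.59 (Hoxa3, needed for the thymus and parathyroid), -0.58 (Hoxc6), -0.55 (Hoxb6) and -0.54 (Hoxb2). Hoxd8 missed the fold minimum at -0.48 ± 0.08 (SE; limma adjusted p = 7.93e-05). With no fold minimum 20 members were lower at an adjusted p under 0.05, where 37.7% of all genes were. In 20 members every ASP array lay below every CON array, which held for 43.0% of all genes, so that by these looser measures the Hox genes stood less far from the background than at 1.4-fold. The shared probe set of Hoxb7 and Hoxb8, which is no member, had mean signals of 10.05 in CON, 9.97 in CGP, 9.43 in ASP and 9.93 in ASP+CGP.

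**Figure D1:**
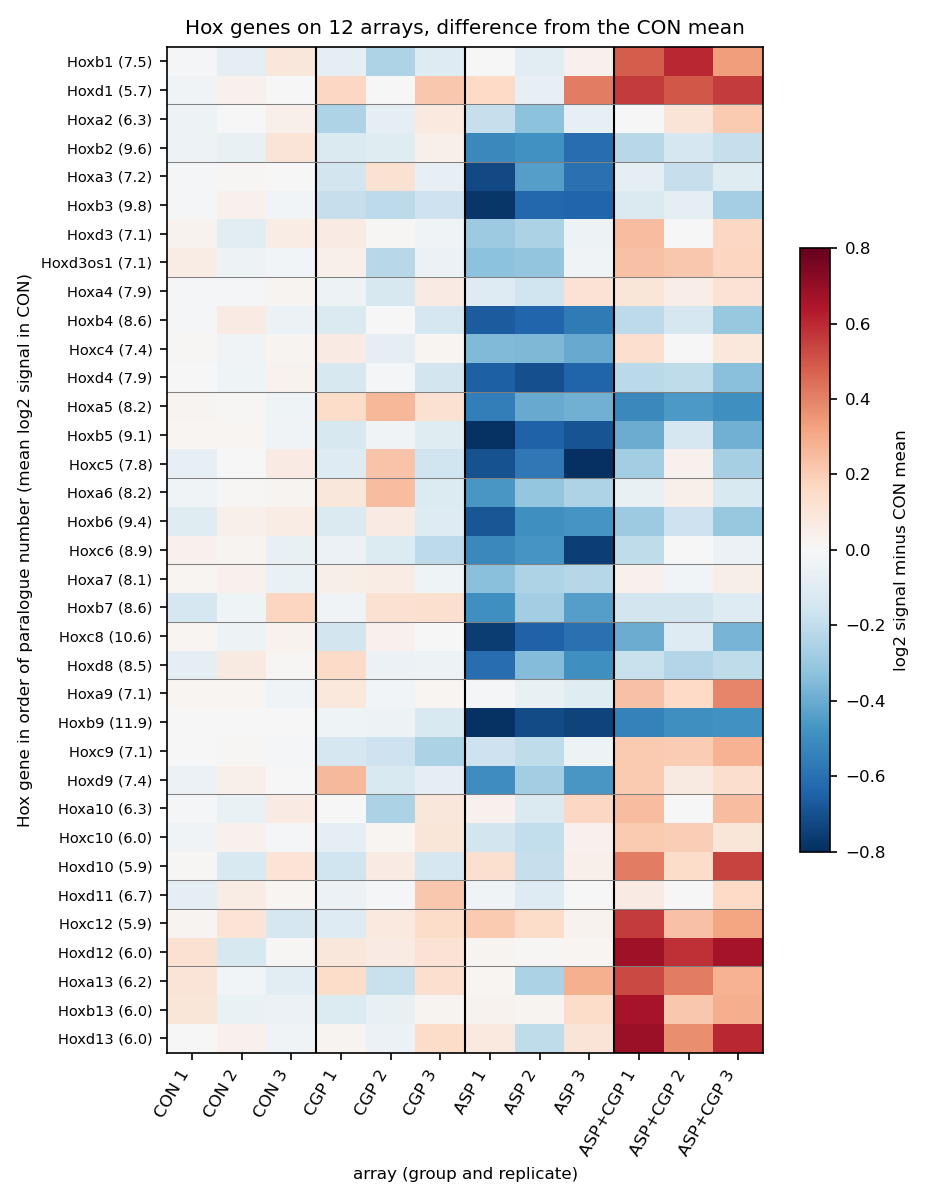
Log2 signal of each Hox gene on each of the 12 arrays (columns, by group and replicate) minus its mean over the 3 CON arrays, in colour, with genes in rows by paralogue number and the mean CON signal in brackets. The ASP arrays are blue from Hoxb2 to Hoxd9 except at a few genes such as Hoxa4 and Hoxa9, and the ASP+CGP arrays are red at the top and bottom rows.

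Position along the clusters went with the size of the difference. All 24 members of paralogues 2 to 9 were below 0 in ASP against CON, with a median of -0.46, and 11 were called. This range is the span of the called genes themselves, so the split describes these values and is no test of position. The 9 members of paralogues 10 to 13 ran from -0.10 to 0.13, with none called. By class 3 of 8 anterior, 7 of 14 central and 1 of 13 posterior members were called lower, with median log2 differences of -0.21, -0.52 and -0.01. By cluster 6 of 9 Hoxb, 3 of 7 Hoxc, 1 of 9 Hoxa and 1 of 10 Hoxd members were called lower.

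Signal went with position too. Every one of the 9 genes of paralogues 10 to 13 had a mean log2 signal under 7 in CON (5.88 to 6.71), against 1 of the 24 genes of paralogues 2 to 9, Hoxa2. Position and the brightness of the probe sets cannot be told apart across the whole range. Cluster went with brightness as well, since the members at 9 or over in CON were Hoxb2, Hoxb3, Hoxb5, Hoxb6, Hoxb9 and Hoxc8. Of the genes whose CON signal was 9 or over, 6 of 6 members were called lower in ASP (median -0.67), against 12.4% of the 5068 genes of that range (median -0.19). Between 8 and 9, 2 of 7 members were called lower against 10.4% of all genes. Between 7 and 8 there were 3 of 11 against 6.91%, and below 7 none of 11 members, where 2.14% of all genes between 6 and 7 and 0.865% under 6 were called lower.

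Within 1 paralogue number the members differed from each other. In group 4 Hoxb4 and Hoxd4 fell, while Hoxc4 had a difference of -0.37 ± 0.06 and Hoxa4 of -0.05 ± 0.07 (SE). The Hoxa4 arrays of CON (7.93, 7.93 and 7.96) and ASP (7.84, 7.78 and 8.06) overlapped. In group 9 Hoxb9 fell, and Hoxd9, Hoxc9 and Hoxa9 had differences of -0.41 ± 0.09, -0.14 ± 0.06 and -0.06 ± 0.06 (SE). Their brightness differed too, with CON means of 11.90 for Hoxb9 and of 7.39, 7.05 and 7.06 for Hoxd9, Hoxc9 and Hoxa9. Hoxb1, which patterns the hindbrain, was at -0.02 ± 0.08 and Hoxd1 at 0.17 ± 0.10 (SE), so paralogue 1 gave no call.

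**Figure D2:**
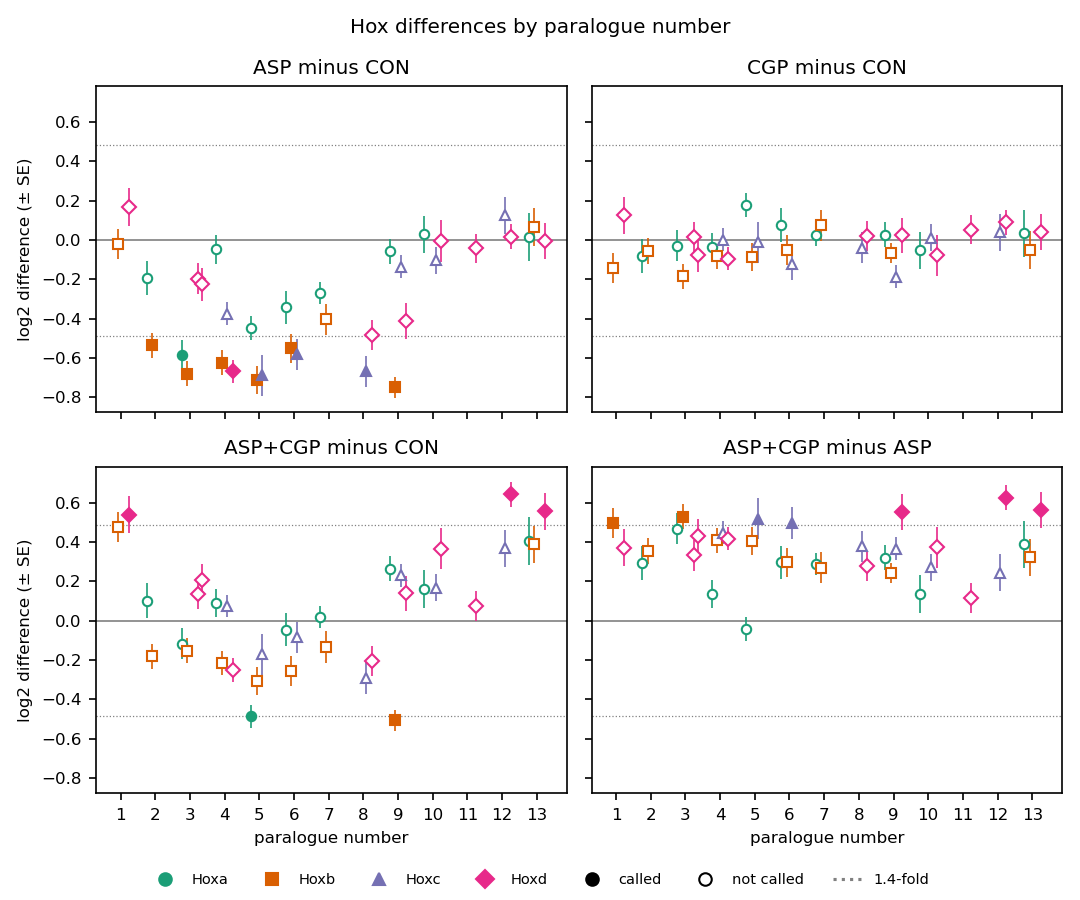
Log2 difference between groups (vertical axis, with the standard error of limma's fit) of each Hox gene against its paralogue number, for 4 comparisons, with shape and colour for the cluster, filled symbols for called genes and dotted lines at 1.4-fold. Called genes in ASP minus CON lie between numbers 2 and 9 and below 0, CGP minus CON has none, and ASP+CGP minus ASP is above 0 for 34 of 35 genes.

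Markers of other cells moved with this comparison. In ASP against CON 9 of 9 neuron, 6 of 6 oligodendrocyte and 5 of 6 astrocyte markers were called higher (median log2 differences 2.02, 3.17 and 1.73). The summed signal of the oligodendrocyte markers was 7730 to 8345 on the ASP arrays and 1499 to 1527 on CON. Adrenal cortex markers were called lower in 2 of 9 cases (Cyp11b2 and Nr5a1, median of the list -0.23) and chromaffin markers in 2 of 8 (Slc18a1 and Phox2a, median -0.40). Endothelial markers were lower in 4 of 6, macrophage markers in 3 of 5, hepatocyte markers in 6 of 8 and stromal fibroblast markers in 1 of 8 cases. In bulk tissue fewer cells of a type and less RNA per cell cannot be told apart, and the part of these cells in the Hox differences was not tested.

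The count depended on cyclic loess and not on median centring, which called the same 11 genes lower. After cyclic loess across arrays the median of all genes in ASP against CON moved from -0.10 to 0.01 and the share of higher among all called genes from 54.7% to 80.1%. Of the 11 genes 7 were still called lower (Hoxa3, Hoxb3, Hoxd4, Hoxb5, Hoxc5, Hoxc8 and Hoxb9), and the Hox median lay 0.16 below that of all genes, against 0.17 before. Among all genes 481 of 15816 were called lower after cyclic loess, against 1292 of 15900 before.

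CGP 39551 alone was compared with CON next. No Hox gene was called by limma in either direction, where 1.62% of all genes were called higher and 0.0189% lower, and 3 members (Hoxc9, Hoxb3 and Hoxa5) had an unadjusted p under 0.05. The median difference was -0.03, with a range of -0.19 (Hoxc9) to 0.18 (Hoxa5). Hoxa5, which is needed for the lung and the neck-to-thorax transition, had signals of 8.24, 8.23 and 8.19 in CON and of 8.37, 8.48 and 8.34 in CGP, so its CGP arrays were the higher ones without overlap, but with a limma adjusted p of 0.226. The CGP arrays of Hoxc5 (7.74, 8.07 and 7.69) were spread more widely than any Hox difference between the CGP and CON means. Hepatocyte markers were higher in CGP in 7 of 8 cases, with a summed linear signal of 36259 to 38389 against 24527 to 24922 in CON, and their part was not tested.

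Aspartame with CGP 39551 was then compared with CON. Of the 35 members 3 were upregulated (Hoxd12, Hoxd13 and Hoxd1) and 2 downregulated (Hoxb9 and Hoxa5), beside 6.09% and 8.32% of all genes. The median was 0.07 for the members and -0.17 for all genes. These 5 calls depended on the scaling. With each array centred on its median Hoxd1, Hoxd12, Hoxd13 and Hoxb1 were called higher and none lower. After cyclic loess Hoxb1 alone was called. Among all genes 1552 of 15993 were called higher and 661 lower with median centring. After cyclic loess these counts were 679 and 500 of 15816. The share of higher among all called genes was 42.3%, 70.1% with median centring and 57.6% after cyclic loess, and the median of all genes moved to -0.10 and -0.01.

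Hoxd12 and Hoxd13 pattern digits and the genital tract. Hoxd12 had log2 signals of 6.11, 5.86 and 5.99 in CON, 6.08, 6.05 and 6.10 in CGP, 6.01, 6.00 and 6.00 in ASP, and 6.67, 6.57 and 6.65 in ASP+CGP. The ASP+CGP arrays stood above all 9 others, at a log2 difference from CON of 0.64 ± 0.06 (SE; limma adjusted p = 4.46e-06). The CON mean was under 6, so with that mean set to 6 Hoxd12 was at least 1.55-fold higher. Hoxd13 had signals of 6.02, 6.06 and 6.00 in CON, 6.05, 5.98 and 6.18 in CGP, 6.10, 5.82 and 6.13 in ASP, and 6.72, 6.40 and 6.63 in ASP+CGP, again without overlap (0.56 ± 0.09, SE; limma adjusted p = 1.51e-04). Hoxd1, known from pain-sensing neurons, was at least 1.21-fold higher (log2 difference 0.54 ± 0.10, SE; limma adjusted p = 2.30e-04), with signals of 5.71, 5.77 and 5.74 in CON and of 6.30, 6.24 and 6.30 in ASP+CGP. Its mean reached 6 in ASP+CGP only (6.28), and this bounded fold lies under the 1.4-fold minimum.

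Dim probe sets as a whole were higher on the ASP+CGP arrays and bright ones lower. Among all genes with a CON signal under 6 the median log2 difference was 0.33 and that of the 5 members there 0.37. Such genes were tested only because another group reached 6, which favours higher values there. From 6 to 7 the medians were 0.25 and 0.28, and from 7 to 8 they were -0.06 and 0.14. From 8 to 9 they were -0.26 and -0.13, and at 9 and over -0.32 and -0.27. The interquartile range of an array was 2.20 to 2.29 on the ASP+CGP arrays and 2.58 to 2.62 on CON. The Hox medians lay above those of all genes in each range, by most between 7 and 9. The part of this signal-dependent shift in the calls was not tested beyond the scaling above. Of the kidney markers 3 of 6 were called higher and of the hepatocyte markers 8 of 8 lower in this comparison, while 1 of 9 neuron markers was higher, and their part was not tested. The 6 kidney markers were dim, with a summed linear signal of 534 to 593 on CON and 776 to 895 on ASP+CGP. Of all genes with a CON signal from 6 to 7, 14.7% were called higher in ASP+CGP.

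Hoxb9 was the one gene called lower in both aspartame groups against CON, by 0.51 on the log2 scale in ASP+CGP (-0.51 ± 0.05, SE; limma adjusted p = 6.06e-06). Hoxa5 had signals of 7.67, 7.82 and 7.84 in ASP and of 7.71, 7.76 and 7.73 in ASP+CGP. Its difference from CON was -0.49 ± 0.06 in ASP+CGP (SE; limma adjusted p = 2.21e-05), and -0.45 ± 0.06 in ASP, short of the fold minimum. Without the first or the second CON array or the first ASP+CGP array the Hoxa5 call was lost at 1.4-fold and 1 gene, Hoxb9, was lower. With no fold minimum 12 members were higher and 10 lower in ASP+CGP than in CON (background 22.3% and 50.4%). All ASP+CGP arrays were above all CON arrays in 14 members and below them in 11 (background 22.8% and 52.5%).

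**Figure D3:**
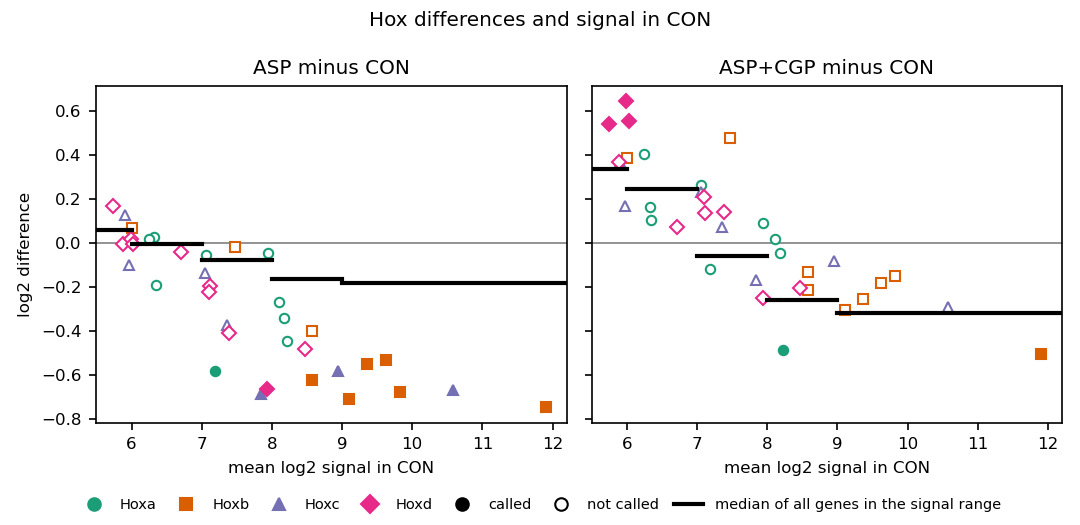
Log2 difference from CON (vertical axis) of each Hox gene against its mean log2 signal in CON, for ASP and ASP+CGP, with black bars for the median of all genes tested in each signal range. In ASP the genes with a signal of 9 or over lie below the bar of their range, and in ASP+CGP most genes follow the bars, which run from 0.33 to -0.32.

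The aspartame groups were compared with each other, which shares the ASP arrays with the first comparison. In ASP+CGP 7 members were upregulated relative to ASP and 0 downregulated, where 6.55% of all genes were called higher and 13.3% lower. The median was 0.37 for the Hox genes and -0.02 for all genes, and 34 of 35 members were above 0. With no fold minimum 31 members were higher (background 30.0%), and in 30 members the arrays did not overlap (background 30.7%). The called genes were Hoxd12 (0.63), Hoxd13 (0.56), Hoxd9 (0.55), Hoxb3 (0.53), Hoxc5 (0.52), Hoxb1 (0.50) and Hoxc6 (0.50). Hoxb1 and Hoxc6 were near the fold minimum, at 1.41-fold each. With array weights Hoxb1, Hoxc5 and Hoxc6 lost their call and Hoxa3 gained one. A filter at 7 left out Hoxd12 and Hoxd13.

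The 7 genes called in the main fit fell into different orders of the groups. Hoxb3, Hoxc5 and Hoxc6 were among the genes that fell in ASP, and in ASP+CGP differed from CON by -0.15, -0.17 and -0.08. Hoxc6, which marks the forelimb level of the trunk, had signals of 8.98, 8.97 and 8.89 in CON, 8.90, 8.84 and 8.74 in CGP, 8.43, 8.47 and 8.19 in ASP, and 8.74, 8.95 and 8.90 in ASP+CGP. Its ASP arrays were the lowest, and its ASP+CGP arrays overlapped those of CON and CGP. In contrast, Hoxb1 had signals of 7.45, 7.40 and 7.56 in CON, 7.40, 7.22 and 7.37 in CGP, 7.46, 7.38 and 7.50 in ASP, and 7.96, 8.08 and 7.80 in ASP+CGP, where only the ASP+CGP arrays stood apart. Hoxd12 and Hoxd13 had this second pattern.

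Hoxa5 was the single member not above 0 in ASP+CGP against ASP (-0.04 ± 0.06, SE; limma adjusted p = 0.583). Its paralogues Hoxb5 and Hoxc5 were at 0.40 and 0.52. After cyclic loess 5 members were called higher, of which Hoxb3 and Hoxc6 were among the 7, and Hoxb2, Hoxb5 and Hoxc8 were added. Among all genes 489 of 15816 were called higher after cyclic loess, against 1041 of 15900 before. Called lower in this comparison were 9 of 9 neuron, 6 of 6 oligodendrocyte and 5 of 6 astrocyte markers. So were 2 of 3 Schwann cell and 2 of 8 hepatocyte markers. Called higher were 2 of 6 kidney, 1 of 8 chromaffin and 1 of 5 macrophage markers. List medians were 0.30 for chromaffin, 0.31 for stromal fibroblast and 0.24 for macrophage markers. They were 0.14 for endothelial, 0.12 for adrenal cortex and -0.07 for adipocyte markers. The part of these cells was not tested.

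**Figure D4:**
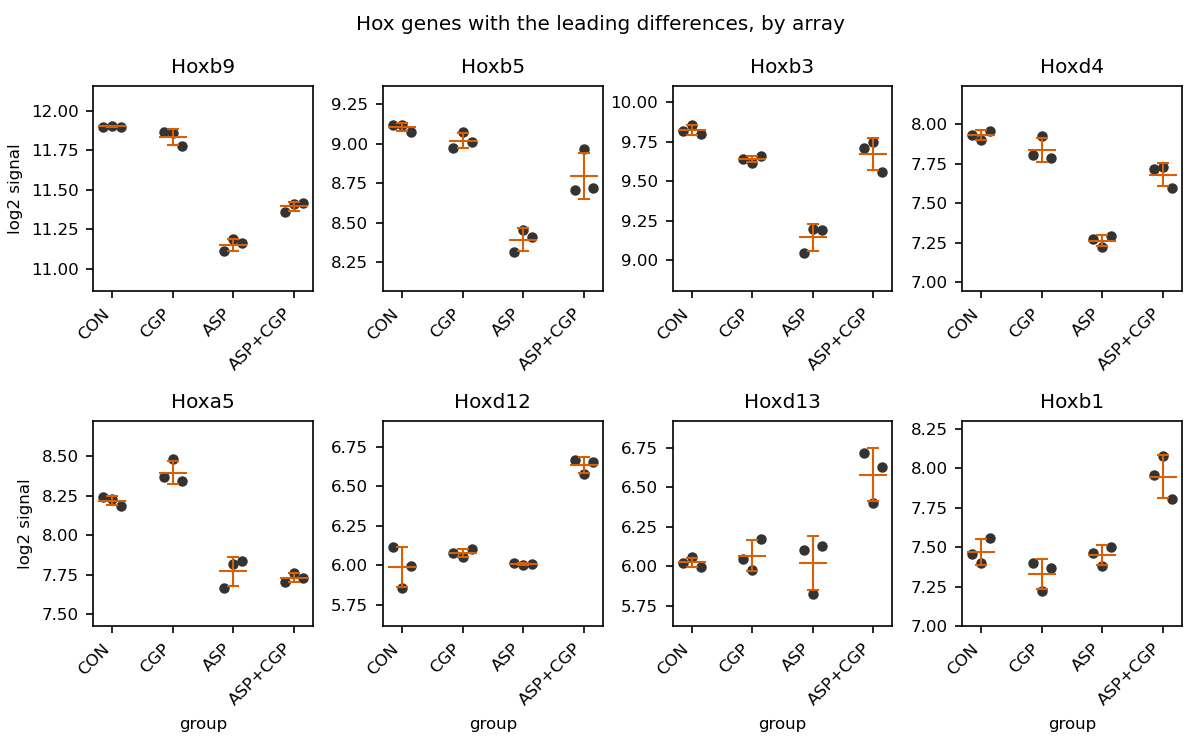
Log2 signal (vertical axis, 1.3 units in each panel) of 8 Hox genes on each array (points) with the group mean and SD (bars, n = 3 arrays of 1 pool). Hoxb9, Hoxb5, Hoxb3 and Hoxd4 are lowest in ASP, Hoxa5 is low in ASP and in ASP+CGP, and Hoxd12, Hoxd13 and Hoxb1 are highest in ASP+CGP.

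Whether the difference between pools with and without aspartame depended on CGP 39551 was tested as the interaction, the difference ASP+CGP minus CGP less the difference ASP minus CON. It was called above 0 for 13 members and below 0 for none, beside 9.02% and 15.5% of all genes, with a median of 0.38 for the members and -0.03 for all genes. With no fold minimum the numbers were 25 and 1 (background 21.9% and 29.5%). The 13 genes were Hoxb1, Hoxa3, Hoxb3, Hoxd3os1, Hoxb4, Hoxd4, Hoxb5, Hoxc5, Hoxc6, Hoxc9, Hoxd9, Hoxd12 and Hoxd13. Hoxb3 had the largest value, 0.71 ± 0.09 (SE; limma adjusted p = 1.68e-05). After cyclic loess 8 members were called, among them 5 of the 13, Hoxb1, Hoxb3, Hoxb4, Hoxb5 and Hoxc6. Among all genes 729 of 15816 were called above 0 after cyclic loess, against 1434 of 15900 before. Without the third CGP array 7 members were called. Markers called below 0 in the interaction were 9 of 9 of neurons, 6 of 6 of oligodendrocytes, 5 of 6 of astrocytes, 8 of 8 of hepatocytes and 2 of 3 of Schwann cells (medians -2.22, -2.83, -1.56, -1.25 and -0.54), and 2 of 6 kidney markers were above 0. Of the chromaffin markers 2 of 8 were above and 1 below 0, and of the adrenal cortex markers 1 of 9 was above 0. Their part was not tested.

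The median of each class on single arrays shows how even the shift was. The central genes had medians of -0.58 to -0.44 on the ASP arrays relative to the CON mean, -0.23 to -0.12 on ASP+CGP, -0.07 to 0.02 on CGP and -0.01 to 0.02 on CON. The posterior genes had medians of -0.18 to 0.03 on ASP and 0.20 to 0.28 on ASP+CGP. Of these, Hoxc10 and Hoxd10 were tested only through ASP+CGP. The anterior genes ran from -0.32 to -0.05 on ASP, where the third array was the high one, and from 0.05 to 0.17 on ASP+CGP. In the central class all 3 ASP arrays were below all 9 other arrays, and in the posterior class all 3 ASP+CGP arrays were above all others.

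**Figure D5:**
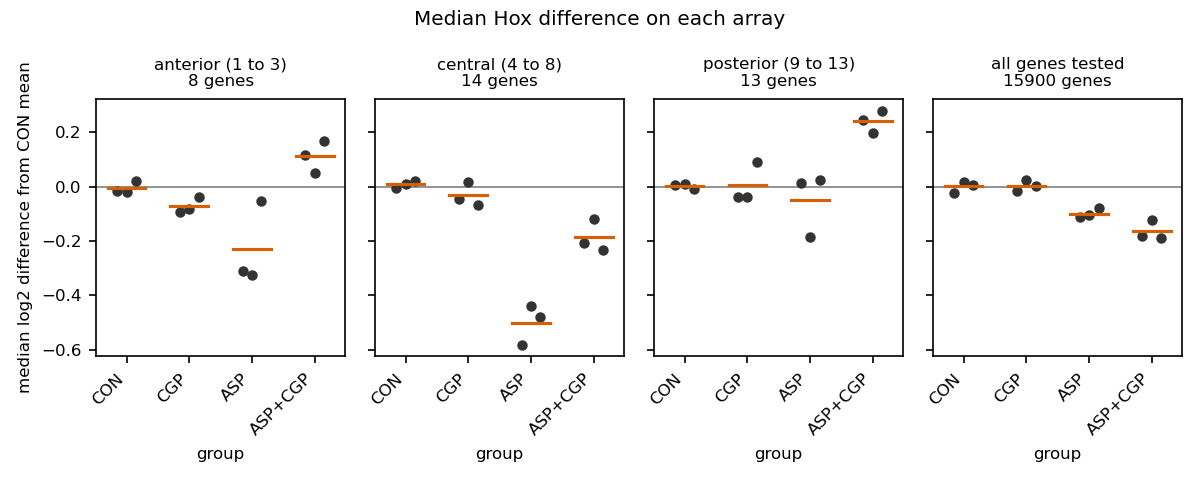
Median over the genes of a position class, and over all genes tested, of log2 signal minus the mean of CON (vertical axis) on each array (points), with the mean of the 3 arrays of a group (bars). The central class is lowest on the ASP arrays (-0.58 to -0.44) and the posterior class highest on the ASP+CGP arrays (0.20 to 0.28). All genes with a CON signal from 6 to 7 had a median of 0.25 in ASP+CGP against CON.

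Of the cluster microRNA genes listed, Mir196a-1 and Mir196b each had a probe set of their own, and Mir10a, Mir10b and Mir196a-2 had none. Mir196a-1, which lies beside Hoxb9, was lower in ASP than in CON at a log2 difference of -0.77 ± 0.11 (SE; limma adjusted p = 2.12e-05), with group means of 7.75 in CON, 7.59 in CGP, 6.98 in ASP and 7.40 in ASP+CGP. Mir196b, which lies beside Hoxa9, had means of 5.99, 5.84, 5.91 and 6.48 and was at least 1.4-fold higher in ASP+CGP than in CON and in ASP. Mir196b reached 6 in ASP+CGP only, so it was tested only through that group. The former was lowest in ASP, as Hoxb9 was, and the latter highest in ASP+CGP, as Hoxd12 and Hoxd13 were, although both encode mature strands of the same seed. The second probe set of Hoxd3os1 gave -0.27 in ASP against CON, beside -0.23 on the one used.

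Cofactors and regulators of the Hox genes were read from lists, of which none had a gene called in CGP against CON. For single genes of these lists and those below, higher and lower mean called. Of 8 TALE cofactors, which bind DNA beside Hox proteins, Meis1 was lower in ASP and in ASP+CGP than in CON (-0.65 and -0.54), Pknox2 was higher in ASP (0.83), and Pbx4 was higher in ASP+CGP (0.58). None of 28 Polycomb genes, whose products keep Hox genes silent, was called in ASP (median -0.17), and Pcgf3, Rybp and Pcgf5 were lower in ASP+CGP. Of 11 Trithorax and other activator genes, Dot1l, a histone H3 methyltransferase, was lower in both (-0.92 in ASP), and so was Kdm6b, a demethylase that removes the Polycomb mark (-0.56 and -0.58).

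Retinoic acid switches on anterior and central Hox genes in the embryo. Of 15 genes of its pathway 5 were lower in ASP, the receptors Rara (-0.55) and Rarg (-0.52), the synthetic enzyme Aldh1a3 (-0.55) and 2 others between -0.51 and -0.49. The receptor Rxrg was higher in ASP (0.99) and not called in ASP+CGP, where the degrading enzyme Cyp26c1 was higher (0.58). The list median was -0.34 in ASP and -0.26 in ASP+CGP.

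Positional factors outside the clusters were read as well. Of 16 forebrain transcription factors 8 were higher in ASP, led by Dlx1 (1.70), Dlx5 (0.96), Dlx2 (0.75) and Six3 (0.72), and in ASP+CGP 4 were higher. Of 10 hindbrain and spinal cord factors 2 were higher in ASP, Lhx1 (0.68) and Lhx5 (0.54), and 3 in ASP+CGP, Lmx1b (0.76), Pax5 (0.57) and Lbx1 (0.49). Of 12 factors of the adrenal primordium 5 were lower in ASP, among them Osr2 (-0.89), Gata6 (-0.67), Tcf21 (-0.65) and Nr0b1 (-0.63), and 1 was higher. In ASP+CGP none of these 12 was called lower than in CON and 1 was called higher, while the list median was -0.12. Relative to ASP, 3 of the 12 were called higher in ASP+CGP and none lower (median 0.18). Among 8 ParaHox and cluster-neighbour homeobox genes Gbx2 was higher in ASP (0.59) and Cdx2, an activator of posterior Hox genes, in ASP+CGP (0.52). Summed linear signals on CON were low, 1647 to 1683 for the forebrain, 1355 to 1408 for the hindbrain and 928 to 956 for the ParaHox list. Dim genes as a whole were higher on the ASP+CGP arrays.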

How the data were processed

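Adrenal RNA, combined into 1 pool per group, was hybridised to 12 arrays of the type Affymetrix Mouse Gene 1.0 ST. The authors used RMA as implemented in Partek, which subtracts background, quantile-normalizes and summarises probes by median polish, and deposited log2 values of 26533 probe sets, filtered at 6, each of which reaches 6 on at least 1 array. Such normalization can remove a shift shared by most genes, so differences are relative to all genes. The platform table named 17710 probe sets with 1 symbol, 1077 with several and 7746 with none. The 16244 genes were fitted with limma 3.58.1 in R 4.3.3 over all 4 groups with contrasts, after 344 genes under 6 in every group mean had been left out, and p-values were adjusted over the 15900 tested. Where a group mean was under 6 it was set to 6 to bound a fold. The procedure was tested on simulated data. Sequences were read with Python 3.11.15 and plots drawn with matplotlib 3.10.9.

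The Hox members and all lists were chosen with earlier results of these data known. Text names up to 8 members per comparison and direction by size, their paralogues, and up to 4 called genes per other list. Hoxb2 and Hoxa2 fall outside this rule and were named after their values were seen. Alternatives covered the filter, scaling, moderation, weights, fold minimum, probe set choice, arrays fitted, replicate number as a block, and leaving out each array. No slide or scan date was given, so no batch could be fitted.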

Additional observations from a re-analysis of the deposited data

Results flagged for a closer look

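The difference between pools with and without aspartame was itself different in the presence of CGP 39551 for 13 Hox genes, by limma's interaction term with adjustment over all genes tested, whose error is that of arrays from the same pool and not of mice. Each value below is the log2 response with the antagonist (ASP+CGP minus CGP) less the response without it (ASP minus CON).

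Those of the 13 that were called lower in ASP than in CON differed less in the pools given the antagonist. Hoxb2, Hoxb6, Hoxc8 and Hoxb9 were also called lower in ASP, but their interactions (0.41, 0.35, 0.42 and 0.31) were not called. Hoxb3 had an interaction of 0.71 (responses -0.68 without and 0.03 with CGP 39551), and Hoxc6 of 0.62 (-0.58 and 0.04). Hoxc5 had 0.53 (-0.69 and -0.16), Hoxd4 0.51 (-0.67 and -0.16) and Hoxa3 0.50 (-0.59 and -0.09). Hoxb4 had 0.49 (-0.62 and -0.13) and Hoxb5 0.49 (-0.71 and -0.22).

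Differences with the antagonist were above 0 for the remaining genes. Hoxb1 had an interaction of 0.64 (responses -0.02 and 0.62), Hoxd12 of 0.54 (0.02 and 0.55) and Hoxd13 of 0.52 (-0.01 and 0.51). Hoxc9 had 0.55 (-0.14 and 0.42), Hoxd9 0.53 (-0.41 and 0.12) and Hoxd3os1 0.51 (-0.23 and 0.28).

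The adjusted p of limma ran from 1.68e-05 (Hoxb3) to 0.00847 (Hoxc5). After cyclic loess Hoxb1, Hoxb3, Hoxb4, Hoxb5 and Hoxc6 kept their call, and the other 8 did not. Without the third CGP array 7 genes were called. The pools also differed in other cells. In the same term 9 of 9 neuron, 6 of 6 oligodendrocyte, 5 of 6 astrocyte and 8 of 8 hepatocyte markers were called below 0. Called above 0 were 2 of 6 kidney, 2 of 8 chromaffin and 1 of 9 adrenal cortex markers. The part of these cells in the Hox values was not tested.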

How the results depend on the processing

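No Hox value changed sign among those called. Genes called lower in ASP against CON numbered 11, 7 after cyclic loess (all among the 11), 20 with no fold minimum and 0 at 1.8-fold, and the median of -0.27 became -0.46 with a filter at 7 (24 members), -0.15 after cyclic loess and -0.36 with only the groups compared. In ASP+CGP against CON 3 higher calls became 0 with a filter at 7, 1 after cyclic loess, 12 with no fold minimum and 0 at 1.8-fold. The 2 lower calls became 0 with median centring, cyclic loess and at 1.8-fold, and 10 with no fold minimum, while the median of 0.07 became -0.13 with a filter at 7 and 0.14 with median centring. The 7 higher calls in ASP+CGP against ASP became 31 with no fold minimum and 0 at 1.8-fold, with medians of 0.37, 0.41 after median centring and 0.31 after cyclic loess. The 13 interaction calls became 8 after cyclic loess, 25 with no fold minimum and 0 at 1.8-fold, the 0 below 0 became 1 with no fold minimum (Hoxa5), and the median of 0.38 became 0.43 with a filter at 7, 0.43 with median centring and 0.27 after cyclic loess. The filter and the fold minimum change the genes eligible by construction, and for the scalings the cause was not tested.

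Leaving out 1 array in turn gave 10 to 12 lower calls in ASP (median -0.32 to -0.24), 3 to 4 higher and 1 to 2 lower in ASP+CGP against CON (median 0.05 to 0.11), 5 to 8 higher in ASP+CGP against ASP (0.33 to 0.41) and 7 to 13 in the interaction (0.36 to 0.43). The low of 7 came without the third CGP array. With the replicate block every count stayed at its value (11, 0, 3 and 2, 7 and 13). With group means removed, 8 of 18 same-numbered pairs of arrays from different groups correlated over 0.1 (r -0.15 to 0.38). Among differently numbered pairs 9 of 36 did (r -0.39 to 0.28). These values do not settle whether the numbers pair the arrays.

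Higher calls among all called genes moved from 32.9% to 43.3% (median centring) and 19.2% (cyclic loess) in ASP+CGP against ASP, and from 36.7% to 47.2% and 23.1% in the interaction. The Hox median stayed above that of all genes in both, by 0.30 to 0.41. Of 503 values of single named genes under other settings 429 kept their side of the threshold, 66 lost and 8 gained a call, and 0 changed sign while called. Part of this tally was fixed by construction. No member reached 1.8-fold, so every call was lost at that setting, and averaging probe sets changes the value of Hoxd3os1 alone. Arrays of 1 pool limit all p-values to technical spread, and members under 7 lie near the limit of detection.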
